A study of Mus musculus with 10 samples.

Results

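The netrins and their receptors were examined in the cerebellum of Dscam mutant mice at postnatal day 21 (P21). The gene set comprised Dcc, Neo1, Unc5a, Unc5b, Unc5c, Unc5d, Ntn1, Ntn3 and Ntn4. These were chosen by gene symbol and not by any measured value, although earlier results of these data were known. Of these 9 symbols, 8 matched a GENCODE M21 identifier among the 53447 genes listed for every library, and Ntn3 was not analysed here. Bulk RNA-seq had been carried out on 5 DscamKO and 5 Control cerebella, with 1 library for each mouse. DscamKO mice are homozygous for Dscam del17, a spontaneous loss-of-function allele with a deletion within exon 17, so that every cell of the body carries the mutation from conception. Control mice do not have this genotype and are called wild type in the title of the series. All 10 mice were of the BALB/c strain and P21, and the labels give no sex, while the methods state that both sexes were used. The comparison asks whether the mRNA of a guidance pathway in which DSCAM itself takes part differs when Dscam is mutated.

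Netrins are laminin-related cues that are secreted into the extracellular matrix, where they steer growing axons and migrating cells. DCC and its paralog neogenin mediate attraction to netrin-1, whereas receptors of the UNC5 family mediate repulsion, alone or together with DCC, and DSCAM has also been described as a netrin receptor. In the cerebellum the family is best known through Unc5c, whose loss in mice (the rostral cerebellar malformation mutant) lets granule and Purkinje cells stray beyond the cerebellar border.

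The highest receptor mRNAs of the set were Unc5b and Unc5a, and the bases just upstream of their annotated start sites are shown to place the genes in the genome. Both genes belong to the UNC5 family and share the same transmembrane layout with a cytoplasmic death domain. Unc5a lies on the plus strand of chromosome 13, from 54949411 to 55006018 (GRCm38), and Unc5b lies on chromosome 10, minus strand, from 60762593 to 60831581. Each line gives the 150 bases before the start, 5′ to 3′ on the strand of the gene, from RefSeq on GRCm38.p6, at chr13:54949261-54949410 for Unc5a and chr10:60831582-60831731 for Unc5b. Capitals mark GC boxes (GGGCGG, or CCGCCC on the other strand, 2 of which overlap by 1 base in Unc5a).
Unc5a: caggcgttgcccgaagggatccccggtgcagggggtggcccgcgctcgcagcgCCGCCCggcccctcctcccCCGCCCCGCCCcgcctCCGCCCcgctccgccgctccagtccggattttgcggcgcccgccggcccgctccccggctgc
Unc5b: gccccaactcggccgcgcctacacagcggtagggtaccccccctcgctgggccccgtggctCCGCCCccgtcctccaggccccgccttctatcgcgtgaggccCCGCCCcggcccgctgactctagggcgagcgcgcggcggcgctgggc

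Over the 250 bases before the start, Unc5a had 5 GC boxes and Unc5b had 2. The same window had 4 GC boxes in Ntn4, 1 in Neo1 and 0 in Unc5c, while Dcc, Unc5d and Ntn1 had no window to search. These 5 windows were 66.8% (Unc5b) to 83.2% (Neo1) G or C, against a median of 52.4% over all windows. A GC box was found in 32.7% of the 32851 windows of this length in the RefSeq table, and 4 or more in 4.09%. Such a match describes the letters of the window only. None of these 5 windows held a TATA box (TATAAA, or TTTATA on the other strand), which 12.4% of all windows had.

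The values are TPM, a measure of transcript abundance that corrects for the length of a transcript and for the size of the library, so that levels of different genes can be set side by side. Read numbers cannot be recovered from TPM, and depth and counting error are therefore unknown. The listed TPM summed to 775148 to 805869 in the DscamKO libraries and 684771 to 838532 in the Control libraries. Control 5 had the lowest sum of all 10 libraries. It also had the fewest genes at 0.5 TPM or more, 15623 against 17101 in the next library, Control 3. It was kept in all means, SDs and correlations unless stated. The mitochondrially encoded mRNAs summed to 34717 to 44973 TPM in the DscamKO libraries and 15206 to 44670 TPM in the Control libraries, of which Control 5 was the lowest and Control 3, at 23124 TPM, the next. The cerebellar identity of the tissue was borne out by its markers. A list of 7 Purkinje cell markers summed to 2774 to 3410 TPM in DscamKO and 2793 to 3389 TPM in Control. For 7 granule cell markers the sums were 2612 to 2961 TPM in DscamKO and 2609 to 3447 TPM in Control. Of the granule cell markers, 6 were lower in mean in DscamKO and 1 was higher. Chn2 and Neurod1, both lower, had an unadjusted p under 0.05 from limma, and Neurod1 did not overlap. Of the Purkinje cell markers, 6 were higher and 1 lower, with 0 at an unadjusted p under 0.05. All 7 markers of molecular layer interneurons and Golgi cells were higher, 3 of them at an unadjusted p under 0.05, and all overlapped. A list of 16 brainstem and midbrain markers summed to 13.2 to 32.9 TPM in DscamKO and 7.49 to 21.03 TPM in Control. Of the 16, 11 stayed under 0.5 TPM in every library, 4 of them at 0. The 5 markers of that list that were tested were all higher in mean in DscamKO. Of these, 3 (Dbh, Slc17a6 and Th) had an unadjusted p under 0.05 from limma. Dbh had 0.685 to 1.45 TPM in DscamKO and 0 to 0.458 TPM in Control, without overlap. It reached 0.5 TPM in 5 libraries, all DscamKO, so it passed the filter (0.5 TPM in at least 5 libraries) only through that group. Its p and its lack of overlap were therefore partly set by the filter. Slc6a5, Slc17a6 and Th were the highest of the list, at means of 7.83, 6.16 and 2.96 TPM over all libraries. Whether their mRNA came from brainstem or from cerebellar cells was not tested. A list of 7 myelin markers summed to 6958 to 8123 TPM in DscamKO and 5463 to 7971 TPM in Control. All 7 were higher in mean in DscamKO and 4 had an unadjusted p under 0.05. Of these, Mobp had 911.3 to 1026 TPM in DscamKO and 544.8 to 846.9 TPM in Control, without overlap, and Mog had 139.8 to 175.5 TPM in DscamKO and 56.8 to 139.7 TPM in Control, also without overlap. A list of 5 forebrain markers summed to 2.93 to 4.86 TPM in DscamKO and 1.99 to 4.13 TPM in Control. Over all genes tested, 5.55% had an unadjusted p under 0.05 from limma and 1.22% did not overlap. None of these markers was called (adjusted p of 0.779 or more from limma), and the part of such cells in the values of the netrin genes was not tested.

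The mutated gene was measured first. Dscam had 5.11, 5.42, 4.53, 3.73 and 3.05 TPM in the DscamKO cerebella, against 8.04, 8.43, 6.79, 9.05 and 6.29 TPM in the Control cerebella. Every DscamKO value lay below every Control value, and the means were 4.37 ± 0.98 and 7.72 ± 1.15 TPM (SD, n = 5 each). The log2 fold change, DscamKO minus Control, was -0.82 (95% interval -1.33 to -0.32, exact two-sided permutation p = 0.0079, the smallest that 5 against 5 can give). The adjusted p from limma, over all 17168 genes tested, was 0.779. The transcript of the mutant allele was thus still detected at a reduced level. Over all genes tested, the groups did not overlap for 1.22%.

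Among the 8 netrin and receptor genes, no call was made between the genotypes. A gene was tested if it reached 0.5 TPM in at least 5 of the 10 libraries, which 7 of the 8 did, and a call needed an adjusted p under 0.05 (limma on log2 of TPM + 0.1, Benjamini-Hochberg over all genes tested). Over all 17168 genes the share called was 0%, with the smallest adjusted p at 0.29. At an unadjusted p under 0.05, 5.55% of all genes passed, 2.29% higher and 3.26% lower in DscamKO, and of the 7 tested members 1 passed (Unc5b, lower) and 6 did not. The log2 fold changes of the 7 lay between -0.30 and 0.32, with 3 above 0, 4 below and a median of -0.01, against 56% above 0 and a median of 0.05 over all genes. The 2 groups overlapped for each of the 8 members, where 0.419% of all genes tested had DscamKO above Control without overlap and 0.798% had DscamKO below. All fold changes are on the scale of log2(TPM + 0.1), which draws those of low genes toward 0, and in bulk tissue fewer cells of a type and less RNA per cell cannot be told apart.

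**Figure D1:**
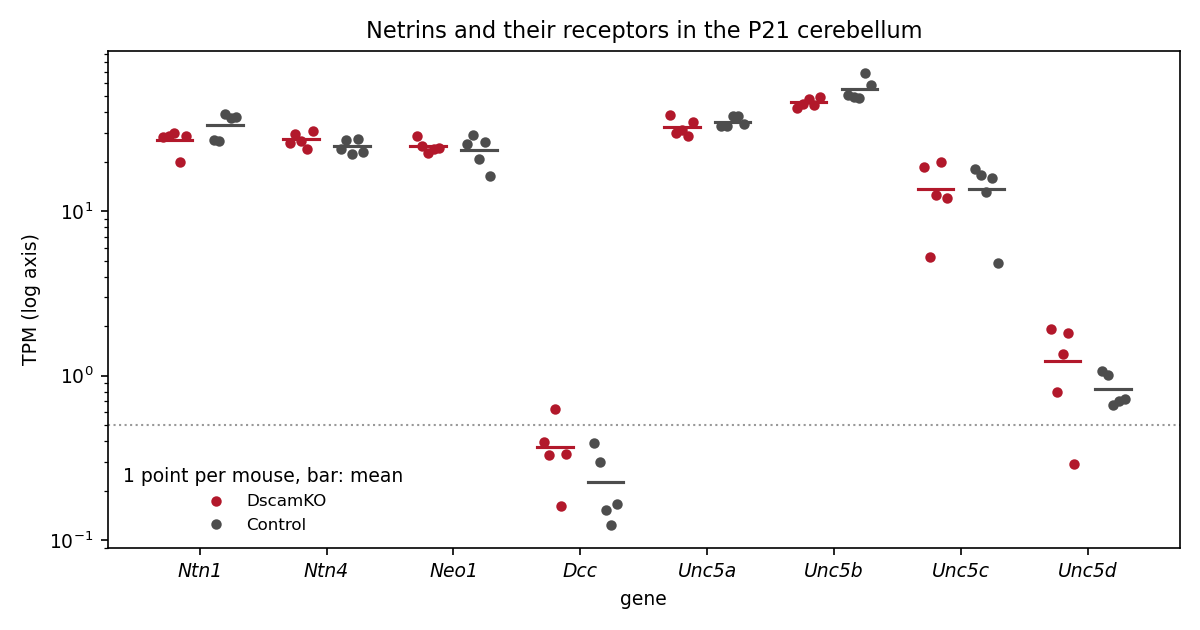
TPM (log axis) of the 8 netrin and receptor genes in each library, DscamKO in red to the left of Control in grey, with 1 point per mouse and a bar at the mean of 5. Unc5b was the highest and Dcc the lowest; the dotted line is the 0.5 TPM filter, which Dcc reached in 1 library only.

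Ntn1 encodes netrin-1, the founding vertebrate netrin and the main ligand of DCC, neogenin and UNC5. Ntn1 had 28.24, 28.56, 29.86, 19.93 and 28.70 TPM in DscamKO, against 26.95, 26.57, 39.11, 36.90 and 37.27 TPM in Control. Controls 3, 4 and 5 lay above all DscamKO libraries, while Controls 1 and 2 lay among them, and DscamKO 4 was below every other library. The means were 27.1 ± 4.03 TPM in DscamKO and 33.4 ± 6.09 TPM in Control (SD, n = 5 each). The log2 fold change was -0.30 (95% interval -0.65 to 0.06, adjusted p = 0.779 from limma, exact permutation p = 0.119), so the difference was within the spread between mice. The 3 Controls with high Ntn1 were also the 3 libraries with the least mitochondrial mRNA of all 10, at 23124, 32199 and 15206 TPM. With the level of mitochondrial mRNA in the model, the Ntn1 log2 fold change was -0.11 (adjusted p = 0.9 from limma), and without DscamKO 4 it was -0.19 (adjusted p = 0.898).

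Ntn4 encodes netrin-4, which resembles the short arm of laminin beta chains, binds laminin and is found in basement membranes. Ntn4 had 25.94, 29.59, 26.74, 23.82 and 30.67 TPM in DscamKO, against 23.94, 26.85, 22.21, 27.45 and 22.99 TPM in Control. The ranges overlapped over most of their width, although the 2 highest libraries were both DscamKO. The means were 27.4 ± 2.78 TPM in DscamKO and 24.7 ± 2.34 TPM in Control (SD, n = 5 each), with a log2 fold change of 0.15 (95% interval -0.12 to 0.41, adjusted p = 0.79 from limma, exact permutation p = 0.159). Without Controls 3 and 5 it was 0.07 (adjusted p = 0.944 from limma).

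Of the summed TPM of the 2 netrin ligands, Ntn1 took 49.6 ± 2.94% in DscamKO and 57.1 ± 5.89% in Control (SD, n = 5 each). The share was 45.6 to 52.8% in DscamKO and 49.7 to 63.8% in Control, so the groups overlapped. Such a share does not move with the scaling of a library, and it was not tested because it was built from the members.

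Neo1 encodes neogenin, the DCC paralog, which binds netrins and also the repulsive guidance molecules (RGM). Neo1 had 28.54, 24.91, 22.62, 23.71 and 24.20 TPM in DscamKO, against 25.46, 28.88, 20.60, 26.12 and 16.28 TPM in Control. The DscamKO values all lay within the Control range, whose lowest points were Control 5 and Control 3. The means were 24.8 ± 2.25 TPM in DscamKO and 23.5 ± 5.00 TPM in Control (SD, n = 5 each), with a log2 fold change of 0.10 (95% interval -0.26 to 0.46, adjusted p = 0.886 from limma, exact permutation p = 0.579). Without Controls 3 and 5, the libraries lowest in mitochondrial mRNA, it was -0.11 (adjusted p = 0.899), and its direction was thus set by those libraries.

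Dcc encodes the receptor that gives netrin-1 its attractive effect on commissural axons. Dcc had 0.39, 0.33, 0.63, 0.16 and 0.33 TPM in DscamKO, against 0.39, 0.30, 0.15, 0.12 and 0.17 TPM in Control. It reached 0.5 TPM only in DscamKO 3, so it was not among the genes tested. The means were 0.368 ± 0.168 TPM in DscamKO and 0.225 ± 0.113 TPM in Control (SD, n = 5 each). The mean log2 values differed by 0.51, which was within the spread between mice (exact permutation p = 0.143; without the filter, limma adjusted p = 0.801 over 27106 genes). The difference was 0.34 without DscamKO 3, its highest library, 0.34 without Controls 3 and 5 and 0.16 with 1 TPM added in place of 0.1. It was 0.71 without DscamKO 4, the lowest DscamKO library. Neogenin mRNA was therefore the main DCC-family mRNA in both genotypes, by TPM.

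Unc5a encodes a receptor of the repulsive UNC5 family. Unc5a had 38.24, 29.66, 31.09, 28.73 and 34.84 TPM in DscamKO, against 32.92, 32.80, 37.80, 37.63 and 33.81 TPM in Control. The highest and the lowest library were both DscamKO, and the Control values lay between them. The means were 32.5 ± 3.96 TPM in DscamKO and 35.0 ± 2.52 TPM in Control (SD, n = 5 each), with a log2 fold change of -0.11 (95% interval -0.36 to 0.14, adjusted p = 0.828 from limma, exact permutation p = 0.246). It was -0.17 without DscamKO 1 and -0.07 without DscamKO 4, the highest and the lowest library (adjusted p of 0.899 and 0.931 from limma).

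Unc5b encodes a second UNC5 receptor, which outside the nervous system is known from endothelial tip cells. Unc5b had 42.52, 44.96, 48.07, 44.20 and 49.18 TPM in DscamKO, against 50.79, 49.63, 48.35, 68.72 and 58.58 TPM in Control. Of the DscamKO libraries, 4 lay below every Control, and the groups overlapped only where DscamKO 5 exceeded Control 3. The means were 45.8 ± 2.77 TPM in DscamKO and 55.2 ± 8.54 TPM in Control (SD, n = 5 each), or 0.836 times the Control level on the log2 scale.

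The Unc5b log2 fold change was -0.26, with a standard error of 0.12 and a 95% interval from -0.51 to -0.003. Its exact two-sided permutation p was 0.0159, not adjusted for the number of members, and its p from limma was 0.0479 before and 0.779 after adjustment over all genes. Ordered by p, Unc5b ranked 905 of the 17168 genes, 953 of which had an unadjusted p under 0.05. Control 4 was the highest library, and without it the log2 fold change was -0.18 (unadjusted p = 0.128, adjusted p = 0.843 from limma).

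Unc5c encodes the receptor of the rostral cerebellar malformation locus. Unc5c had 18.50, 5.23, 12.59, 19.78 and 12.02 TPM in DscamKO, against 18.00, 16.57, 13.10, 15.81 and 4.86 TPM in Control. Each genotype held 1 library far below the rest, DscamKO 2 and Control 5, and the other 8 libraries lay between 12.02 and 19.78 TPM. The means were 13.6 ± 5.83 TPM in DscamKO and 13.7 ± 5.24 TPM in Control (SD, n = 5 each). The log2 fold change was -0.01, but its 95% interval of -0.93 to 0.91 left a wide range of differences possible (adjusted p = 0.995 from limma, exact permutation p = 0.984). It was -0.35 without Control 5 and 0.30 without DscamKO 2, with adjusted p = 0.89 and no call in either case.

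Unc5d encodes the fourth UNC5 receptor, which also binds FLRT adhesion proteins. Unc5d had 1.92, 0.79, 1.35, 1.82 and 0.29 TPM in DscamKO, against 1.06, 1.01, 0.67, 0.70 and 0.72 TPM in Control. The Control values fell inside the DscamKO range, which ran from the lowest to the highest library of all 10. The means were 1.23 ± 0.69 TPM in DscamKO and 0.831 ± 0.188 TPM in Control (SD, n = 5 each), with a log2 fold change of 0.32 (95% interval -0.80 to 1.44, adjusted p = 0.886 from limma, exact permutation p = 0.532). The size of this difference rested on single libraries, since the log2 fold change was 0.71 without DscamKO 5, 0.12 without DscamKO 1 and 0.13 without DscamKO 4 (adjusted p of 0.762 or more from limma). It was 0.02 with the level of mitochondrial mRNA in the model (adjusted p = 0.996 from limma) and 0.18 without Controls 3 and 5 (adjusted p = 0.968).

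**Figure D2:**
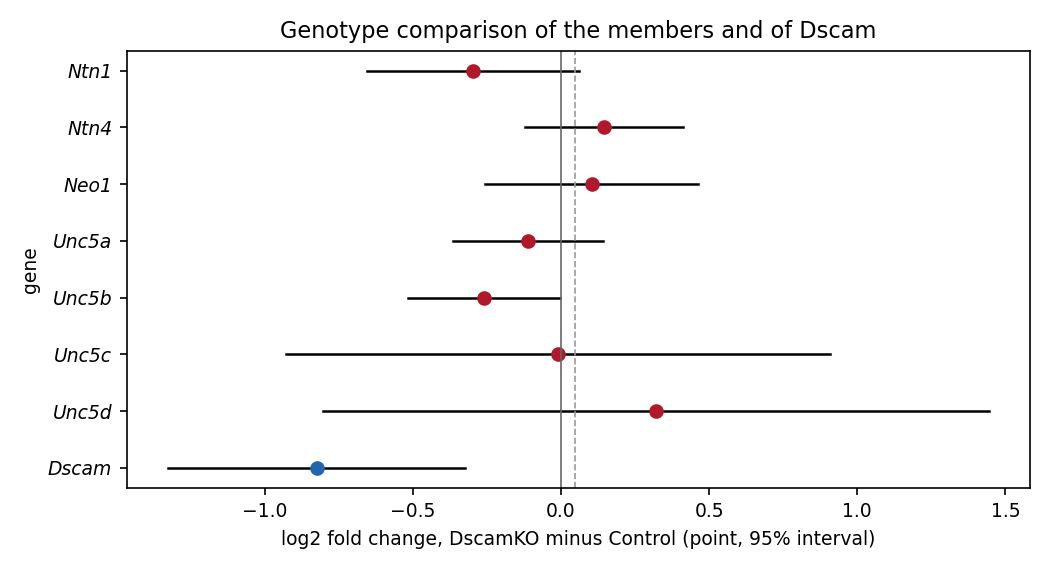
Log2 fold changes, DscamKO minus Control, of the 7 tested members (red) and of Dscam (blue), with lines for the 95% interval from limma, a solid line at 0 and a dashed line at the median of all genes (0.05). The intervals of Unc5b (-0.51 to -0.003) and Dscam (-1.33 to -0.32) lay below 0, with no adjustment for the number of genes, and those of the other 6 included 0.

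By the mean TPM of all 10 libraries, the members were ordered Unc5b (50.5), Unc5a (33.8), Ntn1 (30.2), Ntn4 (26.0), Neo1 (24.1), Unc5c (13.7), Unc5d (1.03) and Dcc (0.297). Unc5b exceeded Unc5a in 10 of 10 libraries, Neo1 exceeded Unc5c in 10 of 10 and Unc5c exceeded Unc5d in 10 of 10. The middle of the order was less clear, since Unc5a exceeded Ntn1 in 8 libraries, Ntn1 exceeded Ntn4 in 6 and Ntn4 exceeded Neo1 in 7. Ntn1 was above Ntn4 in 2 DscamKO libraries and in 4 Control libraries. Among the genes tested, Unc5b stood at percentile 83.5 of the mean level and Unc5c at percentile 54.5.

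The 4 UNC5 receptors made up 78.7 ± 1.68% of the summed receptor TPM in DscamKO and 81.6 ± 3.11% in Control (SD, n = 5 each). Neo1 took 20.99 ± 1.70% in DscamKO and 18.2 ± 3.05% in Control, and Dcc took 0.312 ± 0.145% in DscamKO and 0.177 ± 0.088% in Control. The repulsive class thus held most of the receptor mRNA in every library, between 76.2 and 85.6%. Within the UNC5 family, Unc5b took 49.4 ± 5.23% in DscamKO and 52.6 ± 4.99% in Control, followed by Unc5a with 34.9 ± 3.003% in DscamKO and 33.6 ± 2.77% in Control. Relative to its mean, the share of Unc5c varied more than those of Unc5a and Unc5b, from 6.49 to 20.9% in DscamKO and from 4.96 to 17.5% in Control.

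**Figure D3:**
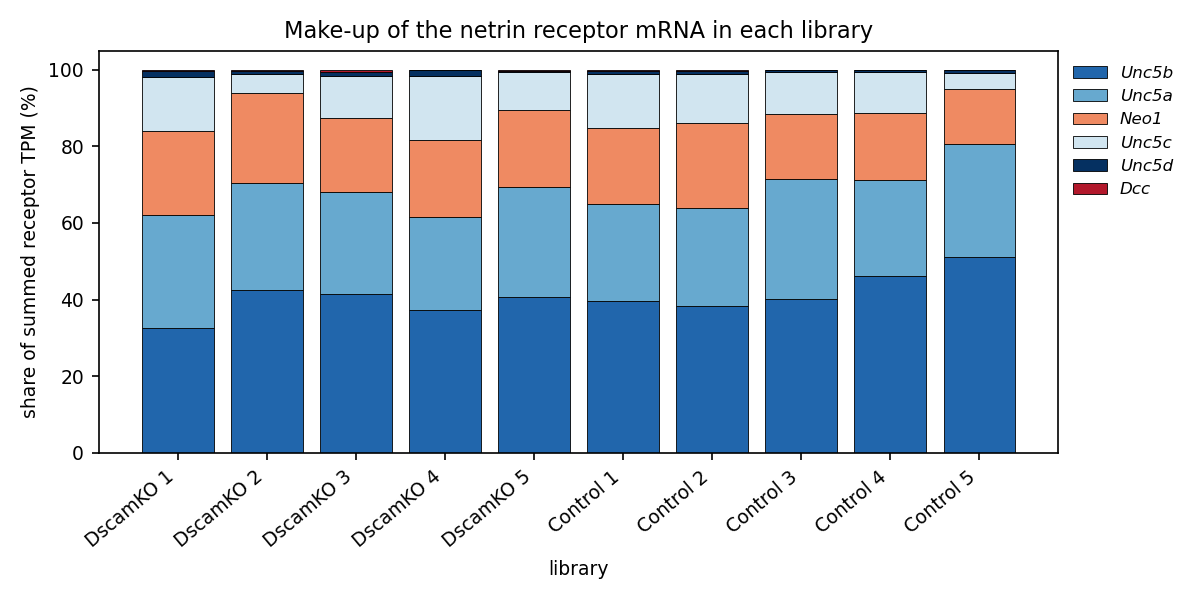
Share of the summed TPM of the 6 receptor genes taken by each, in percent, with 1 stacked bar per library and the 5 DscamKO libraries left of the 5 Control libraries. The 4 UNC5 receptors (blue) held 76.2 to 85.6% of every bar, and the Unc5c segment was thinnest in DscamKO 2 and Control 5.

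The variation among mice of 1 genotype was followed through the genes whose levels were most like each member. Pearson's r was computed over the 10 libraries on log2 values, after subtracting the mean of each genotype, against 12801 protein-coding genes whose mean was 1 TPM or more. With so many genes searched, high values of r arise readily, and 2 mRNAs of 1 library share its composition, so the values describe these libraries and are given without a p. For Unc5c the most similar gene was Ttr (r = 0.968, Spearman's rho = 0.952), which encodes transthyretin and is the most abundant choroid plexus mRNA. The value was 0.958 without Control 5 and DscamKO 2, the libraries farthest from the median. Next was Nwd1 (r = 0.96, rho = 0.855), for which r was 0.776 without those libraries.

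Ttr had 3050, 1894, 2557, 3350 and 2355 TPM in DscamKO, against 3350, 3318, 2537, 3110 and 1775 TPM in Control. Its lowest library of each genotype, DscamKO 2 and Control 5, was also the lowest for Unc5c. The mean of all 5 choroid plexus markers, Ttr included, gave r = 0.912 with Unc5c. Of the other 4 markers, Kl, Clic6 and Kcnj13 gave 0.855, 0.805 and 0.62, and Folr1 gave 0.816, which was -0.14 without those 2 libraries. High values were not limited to choroid plexus. Unc5c gave r = 0.77 with the endothelial list, 0.731 with granule cells and 0.683 with astrocytes, down to 0.055 with oligodendrocyte precursors. The summed choroid plexus markers were 1925 to 3405 TPM in DscamKO and 1798 to 3400 TPM in Control, and their part in the Unc5c level was not tested.

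Neo1 was most like Errfi1 (r = 0.995, rho = 0.988), an inhibitor of the EGF receptor, and Lmo7 (r = 0.991, rho = 0.952), and it also went with the mitochondrial mRNA of the library (r = 0.869, rho = 0.709). Mitochondrial mRNA gave r = 0.732 with Unc5c (rho = 0.782), -0.69 with Ntn1 (rho = -0.78), -0.20 with Unc5a (rho = -0.46) and -0.24 with Unc5b (rho = -0.30). For Ntn1 the most similar genes were Spem1 (r = 0.985) and Myl12b (r = 0.959), and for Ntn4 they were Shisal1 (r = 0.962) and Homer2 (r = 0.925), a postsynaptic scaffold gene. For Unc5a they were Wdr24 (r = 0.926) and Insyn1 (r = 0.921), a component of inhibitory synapses. For Unc5b they were Tsc1 (r = 0.89, and 0.691 without Controls 3 and 4) and Dyrk1b (r = 0.888), and for Unc5d they were Ccnb2 (r = 0.951), a mitotic cyclin, and Srarp (r = 0.938).

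Between the members themselves, the 21 pairs gave values of r from -0.58 (Unc5d with Ntn4) to 0.651 (Neo1 with Unc5c). Unc5a and Unc5b, the 2 highest receptors, gave r = 0.139. Ntn1 gave 0.59 with Unc5a and 0.401 with Unc5b, and -0.51 with Unc5c. The members were also set against the mean of each of 12 marker lists, which makes 84 comparisons. Neo1 gave r of 0.914 with the Purkinje cell list, 0.881 with the astrocyte list and 0.8 or more with 7 of the 12 lists. For those 7 lists, rho ran from 0.539 (choroid plexus) to 0.842 (brainstem and midbrain). Control 5, the library farthest from the median for Neo1, was included, and its part in these values was not tested. The highest value for Unc5b was 0.541, with oligodendrocyte precursors, and its value with endothelial cells was -0.27. For the other members the highest values were 0.545 for Ntn4 (pericytes and meningeal fibroblasts), 0.631 for Unc5d (brainstem and midbrain), 0.23 for Ntn1 (oligodendrocyte precursors) and 0.188 for Unc5a (microglia).

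**Figure D4:**
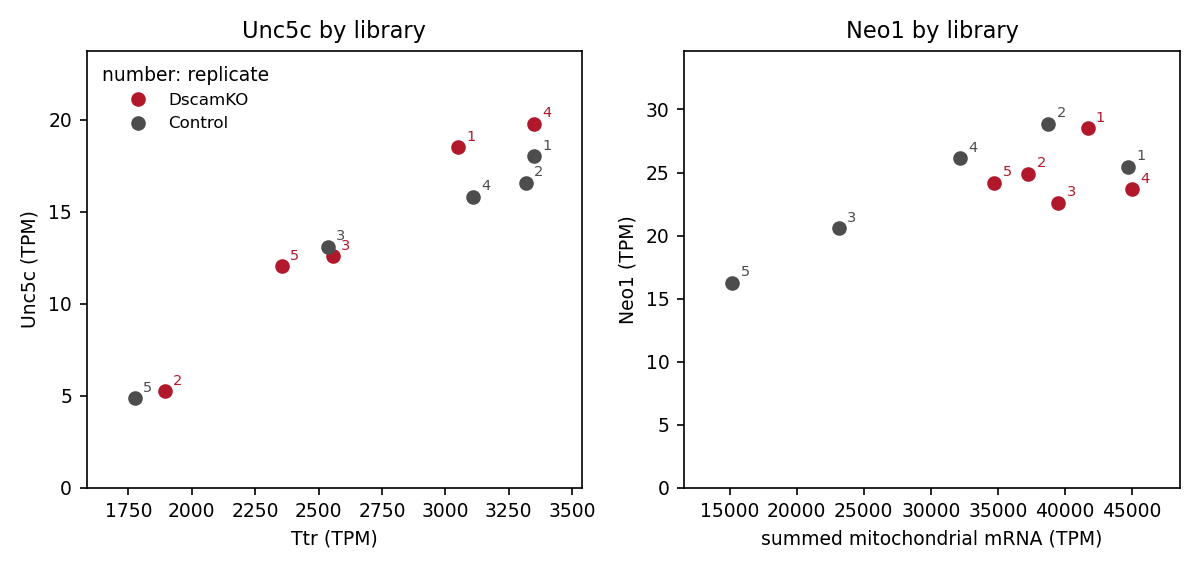
Left, Unc5c against Ttr in each library; right, Neo1 against the summed mitochondrial mRNA, all in TPM, with DscamKO in red, Control in grey and the replicate number beside each point. DscamKO 2 and Control 5 were lowest for both Unc5c and Ttr, and Control 5 and Control 3 were lowest for both Neo1 and mitochondrial mRNA.

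Where members overlap another annotated gene, the overlapping gene was low. The highest value of such a gene was 2.21 TPM for Unc5c and 2.04 TPM for Unc5b, and it was 1.13 TPM or less for the other members. For Unc5d, itself at a mean of 1.03 TPM, 3 overlapping genes lay on the same strand and reached up to 0.445 TPM. Their part in the Unc5d level was not tested. Dcc overlapped no other gene. Unc5c lies on the plus strand of chromosome 3 (141465216 to 141834924), Ntn1 on the minus strand of chromosome 11 (68209364 to 68400823), Ntn4 on the plus strand of chromosome 10 (93640681 to 93747207) and Neo1 on the minus strand of chromosome 9 (58874687 to 59036441). Unc5d lies on the minus strand of chromosome 8 (28646717 to 29219636) and Dcc on the minus strand of chromosome 18 (71253634 to 72351069), where it spans 1097 kb, the longest of the 8.

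The other genes of the pathway were then considered as lists, and no gene of any list was called (adjusted p of 0.779 or more from limma). For comparison with the counts below, 56% of all genes tested had a log2 fold change above 0. An unadjusted p under 0.05 from limma was found for 5.55% of them. Dscaml1, the paralog of Dscam, had 6.42, 7.16, 6.87, 7.58 and 10.5 TPM in DscamKO, against 6.57, 10.8, 13.0, 20.4 and 20.8 TPM in Control. The groups overlapped only through Control 1, since the other 4 Controls lay above every DscamKO library. The log2 fold change was -0.79 (unadjusted p = 0.0257 from limma, exact permutation p = 0.0635). It was -0.57 without Controls 3 and 5 (unadjusted p = 0.116) and -0.41 with mitochondrial mRNA in the model (unadjusted p = 0.163 from limma).

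The netrin-G proteins are anchored to the membrane and act at synapses. They were listed with the LRRC4 family (also called netrin-G ligands) and netrin-5 as 6 genes, of which 5 were tested. Of these, 4 were lower in mean and 1 was higher in DscamKO, with a median log2 fold change of -0.32, and 0 of 5 had an unadjusted p under 0.05. Lrrc4b, which encodes a synaptic adhesion protein, had 115.9 ± 17.8 TPM in DscamKO and 152.2 ± 41.7 TPM in Control (log2 fold change -0.37, adjusted p = 0.779 from limma). Control 5 was its highest library, at 223.5 TPM, and the log2 fold change was -0.22 without it, -0.19 without Controls 3 and 5 and -0.12 with mitochondrial mRNA in the model. Lrrc4 had 29.8 ± 1.44 TPM in DscamKO and 33.3 ± 3.69 TPM in Control (log2 fold change -0.15, adjusted p = 0.785 from limma). Ntng2 had 1.298 to 4.39 TPM in DscamKO and 2.26 to 12.9 TPM in Control, where 2 libraries exceeded 10 TPM.

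Other binding partners of netrin-1 or of its receptors were 13 genes, among them the RGM and FLRT families. Of the 12 tested, 9 were higher and 3 lower in mean in DscamKO, with a median log2 fold change of 0.19, and 0 had an unadjusted p under 0.05. The median was -0.04 without Controls 3 and 5 and -0.07 with mitochondrial mRNA in the model, so its sign turned. That over all genes, 0.05, turned in the same settings, to -0.09 and -0.11. Mcam, a cell adhesion molecule of vessels, had 46.1 ± 4.88 TPM in DscamKO and 53.6 ± 5.28 TPM in Control (log2 fold change -0.22, adjusted p = 0.779 from limma). Rgma, a ligand of neogenin, had 24.8 ± 1.51 TPM in DscamKO and 24.3 ± 4.91 TPM in Control (log2 fold change 0.05, adjusted p = 0.939 from limma). Cbln4, a secreted cerebellin that binds DCC and neurexins, was low, with 0.217 to 1.39 TPM in DscamKO and 0 to 0.567 TPM in Control.

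Signalling and turnover downstream of DCC was represented by 27 genes, which were all tested. Of these, 19 were higher and 8 lower in mean in DscamKO, with a median log2 fold change of 0.08, against 56% above 0 over all genes. In each direction 1 gene had an unadjusted p under 0.05, where 5.55% of all genes did. The sign of that median turned with the libraries lowest in mitochondrial mRNA: it was -0.02 without Control 5, -0.10 without Controls 3 and 5 and -0.13 with mitochondrial mRNA in the model. The median over all genes, 0.05, turned likewise, to -0.04, -0.09 and -0.11, so the turn was not particular to this list. Pitpna, a phosphatidylinositol transfer protein that binds DCC, had 176.6, 165.5, 155.4, 164.9 and 156.7 TPM in DscamKO, against 102.0, 160.4, 124.9, 147.7 and 94.7 TPM in Control. The groups overlapped only through Control 2, and the log2 fold change was 0.41 (unadjusted p = 0.0143 and adjusted p = 0.779 from limma, exact permutation p = 0.0238). It was 0.29 without Controls 3 and 5 (unadjusted p = 0.0641 from limma) and 0.29 with mitochondrial mRNA in the model (unadjusted p = 0.0744 from limma). Siah2, a ubiquitin ligase of the family that acts on DCC, had 22.0, 24.1, 22.1, 18.3 and 22.4 TPM in DscamKO, against 27.4, 26.4, 29.7, 34.0 and 21.8 TPM in Control. All DscamKO libraries lay below Controls 1 to 4, and only Control 5 lay among them (log2 fold change -0.35, unadjusted p = 0.0328 and adjusted p = 0.779 from limma, exact permutation p = 0.0397).

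The most abundant genes of that list varied more between Control mice than between the genotypes. Cdc42, a small GTPase of the actin cytoskeleton, had 264.9 ± 34.7 TPM in DscamKO and 245.3 ± 89.6 TPM in Control (log2 fold change 0.19, adjusted p = 0.858 from limma). Pak1, a kinase activated by Rac1 and Cdc42, had 204.2 ± 15.2 TPM in DscamKO and 197.2 ± 41.6 TPM in Control (log2 fold change 0.07, adjusted p = 0.9 from limma). Both log2 fold changes were below 0 without Controls 3 and 5, at -0.21 for Cdc42 and -0.08 for Pak1.

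Partners of the UNC5 receptors were 7 genes, all tested, of which 2 were higher and 5 lower in mean in DscamKO, with a median log2 fold change of -0.03. Pick1, a PDZ domain protein that binds UNC5A, had 39.6, 29.7, 30.8, 32.3 and 34.0 TPM in DscamKO, against 48.4, 43.1, 33.9, 34.7 and 50.4 TPM in Control. The upper 3 Controls lay above all DscamKO libraries and the lower 2 did not (log2 fold change -0.33, unadjusted p = 0.0439 and adjusted p = 0.779 from limma, exact permutation p = 0.0556). Dapk1, the death-associated kinase that acts below UNC5B, had 3.13 ± 0.74 TPM in DscamKO and 4.24 ± 1.24 TPM in Control (log2 fold change -0.41, adjusted p = 0.779 from limma). Maged1 (also called NRAGE), which binds UNC5A, had 258.4 ± 13.8 TPM in DscamKO and 265.1 ± 23.8 TPM in Control, and Ppp2ca, the catalytic subunit of PP2A, had 94.7 ± 5.21 TPM in DscamKO and 94.1 ± 18.0 TPM in Control.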

How the data were processed

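Total RNA of P21 cerebella was sequenced from directional libraries on the NovaSeq platform. The authors trimmed reads with Trimmomatic, aligned them to GRCm38 with HISAT2 and computed the deposited TPM per Ensembl gene with StringTie; the annotation release and the strand setting are not given in the sources used here. Read counts were not analysed here. Symbols came from GENCODE M21, which lacked 105 of the 53447 identifiers. Genes with at least 0.5 TPM in at least 5 of 10 libraries (17168) were compared on log2(TPM + 0.1) with limma 3.58.1 in R 4.3.3 (variance trend, no covariates), with Benjamini-Hochberg adjustment and a threshold of 0.05. For single genes, an exact permutation test (two-sided) used the 252 possible divisions into 5 and 5. Besides the members, the genes named are Dscam and, in each list, the 2 genes of smallest p and the 2 of highest mean. The 2 most similar genes per tested member are also named. Marker genes are named where they bear on the make-up of the tissue or on a member, and were picked after their values were seen. Members, lists and alternatives were chosen with earlier results of these data known. The p-values measure the spread between mice. Alternatives were other scalings, filters, added values and covariates, array weights, a replicate block and leaving out libraries.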

Additional observations from a re-analysis of the deposited data

Results flagged for a closer look

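Ntn1 in DscamKO 4 stood apart from its group. It had 19.93 TPM, against 28.24 TPM in the nearest of the other 4 DscamKO libraries, a gap of 0.838 of the group's range, where 0.71 is the critical value of Dixon's test for 5 samples. In all, 18 groups of 5 libraries were looked at and 1 was flagged, and chance flags about 5% of groups. Without DscamKO 4 the Ntn1 log2 fold change, DscamKO minus Control, was -0.19 (adjusted p = 0.898 from limma).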

How the results depend on the processing

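No member was called in any of 23 alternatives. Over all genes the count of calls, 0 with the settings of the report (953 at an unadjusted p under 0.05), was 4 without the variance trend of limma (Vipr1, Mir3102, Gm44518 and Gm5781, named after their values were seen) and 0 to 1 when each library was left out in turn, the 1 being 1500004A13Rik without DscamKO 4. The Neo1 log2 fold change of 0.10 was -0.0173 with array weights, -0.122 with mitochondrial mRNA as a covariate and -0.1149 without Controls 3 and 5, and ran from -0.0207 to 0.1849 when libraries were left out singly. That of Unc5c ran from -0.3456 (without Control 5) to 0.2966 (without DscamKO 2), and was -0.5917 with the mitochondrial covariate. Unc5b was lower in DscamKO in all 23 alternatives (-0.3033 to -0.1767, adjusted p from limma of 0.523 to 0.919) and had an unadjusted p under 0.05 in 11 of them. Among the other named genes, Cdc42, Pak1 and Ppp2ca were at -0.274, -0.1122 and -0.1653 with the mitochondrial covariate and at -0.2095, -0.0844 and -0.1588 without Controls 3 and 5. Ppp2ca was also at -0.0064 with median-of-ratios scaling and -0.033 with array weights, and Maged1 at 0.0192 with quantile normalization. With single libraries left out, Cdc42 ran from -0.0429 to 0.3297, Ppp2ca from -0.0445 to 0.1143 and Rgma from -0.0373 to 0.1089. The median of the 7 tested members, -0.01, ran from -0.1538 to 0.1212 with single libraries left out. The cause was not tested. The median over all genes, 0.05, was -0.1076 with the mitochondrial covariate and -0.094 without Controls 3 and 5. With the replicate number as a block, 0 genes were called (1094 at an unadjusted p under 0.05 against 953). Deviations of same-numbered libraries correlated at 0.008 to 0.098 and 3 of 10 libraries correlated best with their own number, so the number explained little of the variation. Such values cannot tell whether same-numbered mice were paired. The paper states that controls were littermates, and the labels give no litter. TPM carries no depth, which limits what can be said of Dcc and Unc5d.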
